A study of Mus musculus with 2 samples.

Results

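Matrix metalloproteinases (MMPs) and tissue inhibitors of metalloproteinases (TIMPs) were followed in livers of HFD-fed mice infused with AAV-*Wee1-AS* or, as the control, AAV-GFP. The set holds 6 MMP genes, *Mmp2*, *Mmp9*, *Mmp13*, *Mmp14*, *Mmp15* and *Mmp19*, and the 4 TIMP genes, *Timp1*, *Timp2*, *Timp3* and *Timp4*. These 10 genes were taken by symbol from the 45777 genes of the deposited table, and the estimated counts of all their RefSeq transcripts were summed. Of the 10 genes, 9 reached at least 10 counts in at least 1 library, as did 15857 genes in all. *Timp4* had no count in either library.

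Both groups were C57BL/6 mice, described as C57BL/6 N in the methods of the study, and both were fed a high-fat diet (HFD) for 18 weeks from the age of 7 weeks. The AAV-GFP group received an adeno-associated virus encoding green fluorescent protein. The AAV-*Wee1-AS* group received a virus encoding *Wee1-AS*, a long noncoding RNA from the strand opposite to the *Wee1* gene. Virus was given through the retro-orbital route at week 13, and livers were taken 5 weeks later. The methods give an AAV9 serotype and a CMV promoter for AAV-*Wee1-AS*, and that promoter is not restricted to hepatocytes. The comparison asks how overexpression of *Wee1-AS* in the liver of HFD-fed mice relates to the mRNA levels of the enzymes that degrade extracellular matrix and of their inhibitors.

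Each group was represented by 1 library of poly-A RNA, with 55466182 estimated counts in the control and 48079335 after infusion of AAV-*Wee1-AS*, whereas the design text of the series mentions 4 liver samples. The sources do not say whether the RNA of several mice was pooled. The difference between the groups therefore had no replicate check, no test across samples was possible and no p-value is given. Intervals are exact 95% intervals that cover counting error only. In bulk RNA, fewer cells of a type and less RNA per cell cannot be told apart. Of the 15857 genes, 31.0% lay above 2-fold or below 0.5-fold, with 22.2% above 2-fold and 8.71% below 0.5-fold, and the ratio of a gene moved with its GC content, as described after the members. The 8 hepatocyte markers were all detected, with a summed level of 82940 TPM (transcripts per 1e6, a level corrected for transcript length) in AAV-GFP and 92183 TPM in AAV-*Wee1-AS*, in keeping with the label liver.

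MMPs are zinc-dependent endopeptidases that together cleave nearly all proteins of the extracellular matrix. They are made as inactive precursors, are activated by removal of a propeptide and are blocked by TIMPs, which occupy the active site of the enzyme. In the liver, stellate cells, macrophages, neutrophils and endothelial cells are known sources, and the balance of MMPs and TIMPs is known for its part in the deposition and the resolution of fibrotic scar. TIMP1 and MMP13 have long been studied there, TIMP1 as an inhibitor made by activated stellate cells and MMP13 as the main collagenase of rodents for fibrillar collagen.

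The promoters of 3 members are shown because *Timp1* and *Mmp13* had the lowest log2 ratios and *Timp3* the highest before removal of the trends with GC content and length. With these trends removed, *Timp1* and *Mmp13* were again lowest, while *Timp3* was at -0.33 and *Mmp19* was highest, at -0.02. The windows run from 250 bases before to 50 bases after the annotated start and were taken from RefSeq on GRCm38.p6, all on the plus strand and written 5′ to 3′. Capitals mark motif matches. The motifs were AP-1 with the letters TGANTCA, the ETS family motif PEA3 with the letters AGGAAG, the TATA box with the letters TATAAA and the GC box with the letters GGGCGG. Each was searched on both strands, and in these windows no matches of different motifs overlapped. The *Timp1* window is chrX:20869916-20870215, the *Mmp13* window is chr9:7272264-7272563 and the *Timp3* window is chr10:86300162-86300461.
Timp1: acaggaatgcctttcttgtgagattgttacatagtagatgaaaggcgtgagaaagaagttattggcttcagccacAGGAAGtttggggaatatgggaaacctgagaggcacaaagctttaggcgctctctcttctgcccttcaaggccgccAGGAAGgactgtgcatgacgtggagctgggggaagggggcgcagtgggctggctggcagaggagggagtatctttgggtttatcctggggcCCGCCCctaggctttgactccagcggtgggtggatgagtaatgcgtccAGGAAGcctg
Mmp13: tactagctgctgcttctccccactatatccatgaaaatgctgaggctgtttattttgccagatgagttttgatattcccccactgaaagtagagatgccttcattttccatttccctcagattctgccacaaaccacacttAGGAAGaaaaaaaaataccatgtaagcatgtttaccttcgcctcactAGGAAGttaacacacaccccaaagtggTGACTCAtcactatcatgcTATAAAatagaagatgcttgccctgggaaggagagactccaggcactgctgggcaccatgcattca
Timp3: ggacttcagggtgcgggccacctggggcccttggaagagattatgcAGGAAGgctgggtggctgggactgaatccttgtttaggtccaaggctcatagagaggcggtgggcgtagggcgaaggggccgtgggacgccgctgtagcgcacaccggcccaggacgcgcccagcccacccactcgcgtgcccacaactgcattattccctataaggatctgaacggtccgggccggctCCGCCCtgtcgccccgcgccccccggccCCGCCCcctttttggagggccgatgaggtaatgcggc

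The GC content of these windows was 55.0% for *Timp1*, 43.7% for *Mmp13* and 67.0% for *Timp3*. RefSeq windows were matched for 7 of the 10 members, and *Mmp2*, *Mmp9* and *Mmp19* were not matched. The AP-1 letters occurred in 1 of the 7 windows, that of *Mmp13*, where the match TGACTCA starts 35 bases before the annotated start. The same letters occurred in 7.81% of the 32851 promoter windows of all genes. The TATA box letters also occurred in *Mmp13* alone, 16 bases before the start, and in 13.6% of all windows. The PEA3 letters were held by 5 of the 7 windows and by 35.4% of all windows. *Timp1* held them at 3 places, starting 175 and 99 bases before and 40 bases after the start, and *Mmp13* at 2 places, starting 109 and 62 bases before it. The GC box letters were held by 5 of the 7 windows and by 35.7% of all windows, and *Mmp13* and *Timp4* lacked them. These matches describe only the exact letters given. Variant forms of the motifs were not searched, so a window without a match may hold one, and no binding of a factor was measured.

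Most members were lower in the AAV-*Wee1-AS* library. Of the 9 members detected, 7 were lower and 2 were higher than in AAV-GFP, while 50.5% of all genes were lower. That share moved with GC content across 10 groups of nearly equal size, numbered from the lowest. The lower members apart from *Mmp13* lay in groups 7 to 10, where 72.1% to 92.3% of genes were lower. The 2 higher members, *Timp3* and *Mmp19*, lay in groups 4 and 5, where 28.4% and 43.1% were lower. The ratio was below 0.5-fold for *Timp1*, *Mmp13*, *Mmp2* and *Mmp9*, that is for 4 of 9 against 8.71% of all genes, and no member exceeded 2-fold. The median log2 ratio was -0.93 over the 9 members and -0.02 over all genes. After removal of the trends with GC content and length, the median was -0.65 over the members and -0.02 over all genes. All 9 members were then below 0, but *Mmp19* was so only at -0.02, with 50.5% of genes lower than it. On that scale, 3 members (*Timp1*, *Mmp13* and *Mmp2*) were below 0.5-fold against 7.98% of all genes. The counting interval lay wholly below 0.5-fold for 3 members, *Timp1*, *Mmp13* and *Mmp2*, and for 3.72% of all genes. If both mates of a read pair had been counted, 2 members would have such an interval, *Timp1* and *Mmp2*. The share of all genes under that setting is not given, so this count has no background.

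**Figure D1:**
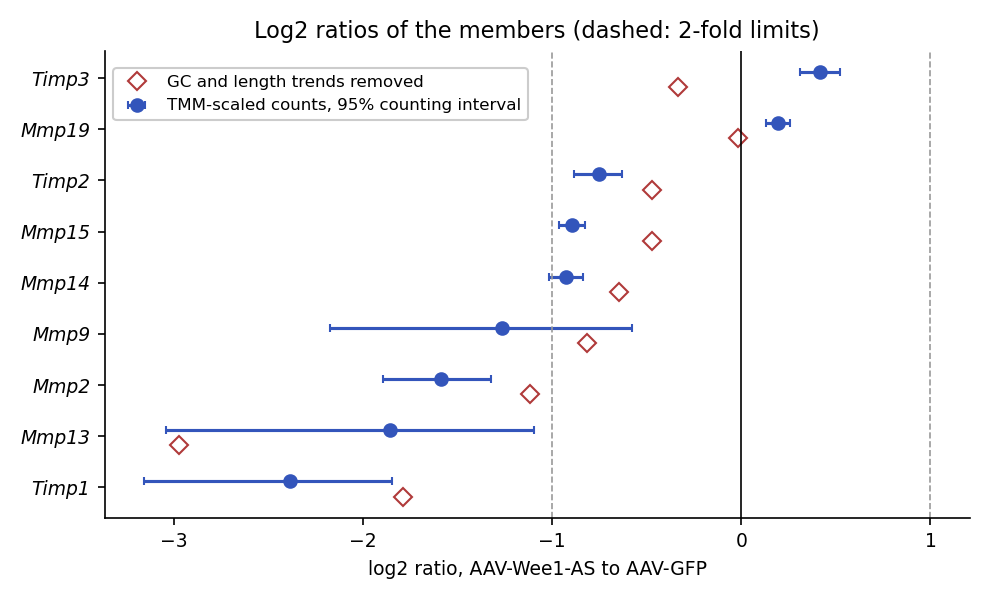
Log2 ratio (AAV-*Wee1-AS* over AAV-GFP) for the 9 members detected, 1 library per group. Filled circles are ratios of TMM-scaled counts with the exact 95% counting interval, open diamonds are the ratios after removal of the trends with GC content and length, and dashed lines mark 0.5-fold and 2-fold. The other 7 members lie below 0 both before and after the removal, while *Timp3* and *Mmp19* lie above 0 before and below 0 after it.

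The gelatinases MMP2 and MMP9 degrade denatured collagen and the type IV collagen of basement membranes. *Mmp2* (gene ID 17390, chr8:92827290-92853421, plus strand, mm10) had 478 counts in AAV-GFP and 131 in AAV-*Wee1-AS*. Its level was 4.70 TPM and 1.53 TPM, and its log2 ratio was -1.59 (95% interval -1.89 to -1.32), which is 3.01-fold lower. A lower ratio than that of *Mmp2* was found for 3.01% of all genes, or 6.46% with the trends removed, where its log2 ratio was -1.12. *Mmp9* (gene ID 17395, chr2:164940326-164955850, plus strand) was thinly counted, with 58 and 19 counts. Its level was 0.551 TPM and 0.205 TPM, and its log2 ratio was -1.27 (-2.18 to -0.58). Both gelatinases were thus lower in AAV-*Wee1-AS*, but the interval of *Mmp9* reached above 0.5-fold and that of *Mmp2* did not. *Mmp9* was no longer below 0.5-fold with the trends removed (-0.82), with FPKM (-0.22) or with TPM (-0.36), and *Mmp2* was not with FPKM (-0.94).

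The collagenase MMP13 cleaves fibrillar collagens at a single site of the triple helix. *Mmp13* (gene ID 17386, chr9:7272514-7283333, plus strand) had 58 counts in AAV-GFP and 12 in AAV-*Wee1-AS*, or 0.647 TPM and 0.154 TPM. Its log2 ratio was -1.86 (-3.04 to -1.10), which is 3.63-fold lower. At 41.7%, its transcript had the lowest GC content of the members. When all genes were split by GC content into 10 groups of nearly equal size, it fell in group 2, counted from the lowest, where the median log2 ratio was 1.13 and 1.93% of genes were below 0.5-fold. With the trends removed, its log2 ratio was -2.97, and 0.540% of genes were lower. On few counts, *Mmp13* therefore moved against the genes of like GC content. With a pseudocount of 1, above its level in both libraries, its ratio was -0.31 with FPKM and -0.51 with TPM.

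The membrane-type enzymes MMP14 and MMP15 are anchored in the plasma membrane, and MMP14 activates pro-MMP2 at the cell surface with TIMP2 as an adaptor. *Mmp14* (gene ID 17387, chr14:54431598-54442456, plus strand) had 3223 and 1412 counts, or 25.7 TPM in AAV-GFP and 13.3 TPM in AAV-*Wee1-AS*. This gives a log2 ratio of -0.93 (-1.02 to -0.84). *Mmp15* (gene ID 17388, chr8:95352296-95374293, plus strand) had 5514 and 2467 counts, or 38.8 TPM and 20.5 TPM. The log2 ratio was likewise -0.90 (-0.97 to -0.83). The ratios of these well counted members stayed above the 0.5-fold limit, which the interval of *Mmp14* reached. Scaling by the upper quartile put both below it, at -1.04 and -1.01. Removal of the length trend alone did so too, at -1.16 and -1.26, while removal of both trends moved them to -0.65 and -0.47. *Mmp15* had the highest GC content of the members, 59.6%, in GC group 10, where the median was -0.69 and 92.3% of genes were lower.

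MMP19 is a soluble enzyme that degrades components of the basement membrane and is expressed in many tissues. *Mmp19* (gene ID 58223, chr10:128790910-128800827, plus strand) had 4240 counts in AAV-GFP and 4044 in AAV-*Wee1-AS*, or 38.6 TPM and 43.0 TPM. The resulting log2 ratio was 0.20 (0.13 to 0.26), and it was -0.02 with the trends removed. *Mmp19* was the MMP member closest to an equal level in the libraries.

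Among the inhibitors, *Timp1* had the lowest ratio. It was also the lowest of all members before removal of the trends, although its interval overlapped that of *Mmp13*, which was lower than *Timp1* after it. TIMP1 is a soluble inhibitor of most secreted MMPs and acts weakly on membrane-type enzymes. *Timp1* (gene ID 21857, chrX:20870166-20874737, plus strand) had 160 counts in AAV-GFP and 24 in AAV-*Wee1-AS*, or 5.42 TPM and 0.937 TPM. Its log2 ratio was -2.39 (-3.16 to -1.85), which is 5.23-fold lower, and 1.47% of all genes had a lower ratio. The value was -1.79 with the trends removed, with 2.38% of genes lower, and it was below 0.5-fold under each of the 10 alternatives that changed its value, between -3.07 and -1.36.

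TIMP2 inhibits a wide range of MMPs and also takes part in the activation of pro-MMP2. *Timp2* (gene ID 21858, chr11:118301061-118355411, minus strand) had 1540 and 760 counts, or 12.9 TPM in AAV-GFP and 7.51 TPM in AAV-*Wee1-AS*. The log2 ratio of *Timp2* was -0.75 (-0.88 to -0.63), which is 1.69-fold lower. The 3 genes of the MMP2 activation complex, *Mmp2*, *Mmp14* and *Timp2*, all lay in GC group 8, where 83.2% of genes were lower, and *Mmp2* alone of them was below 0.5-fold.

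TIMP3 differs from the other inhibitors in that it is bound to the matrix, and it also inhibits ADAM17 and several ADAMTS proteases. *Timp3* (gene ID 21859, chr10:86300412-86349505, plus strand) had 1448 counts in AAV-GFP and 1609 in AAV-*Wee1-AS*, or 9.39 TPM and 12.3 TPM. Its log2 ratio was 0.42 (0.31 to 0.52), but it was -0.02 with the length trend removed and -0.33 with the trends of GC content and length removed. The direction of *Timp3* thus depended on this correction. *Timp4* (gene ID 110595, chr6:115244444-115252205, minus strand) encodes an inhibitor known mainly from heart and brain. Its count of 0 in both libraries allows up to 3 counts, that is 0.0530 CPM (TMM-scaled counts per 1e6) in AAV-GFP and 0.0637 in AAV-*Wee1-AS*.

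Levels per transcript length ranged widely among the members. In AAV-GFP, *Mmp15* and *Mmp19* were the most abundant and their counting intervals overlapped (37.7 to 39.8 TPM and 37.4 to 39.7 TPM). *Mmp14*, *Timp2* and *Timp3* followed with intervals that did not overlap. *Timp1* (4.62 to 6.33 TPM) and *Mmp2* (4.28 to 5.14 TPM) could not be ordered, nor could *Mmp13* and *Mmp9*, both below 1 TPM. In AAV-*Wee1-AS*, *Mmp19* stood alone at the top, followed by *Mmp15*, while *Mmp14* (12.6 to 14.0 TPM) and *Timp3* (11.7 to 12.9 TPM) overlapped. *Timp2*, at 7.51 TPM, followed these, *Mmp2* (1.28 to 1.81 TPM) and *Timp1* (0.601 to 1.39 TPM) again overlapped, and *Mmp9* and *Mmp13* were lowest.

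**Figure D2:**
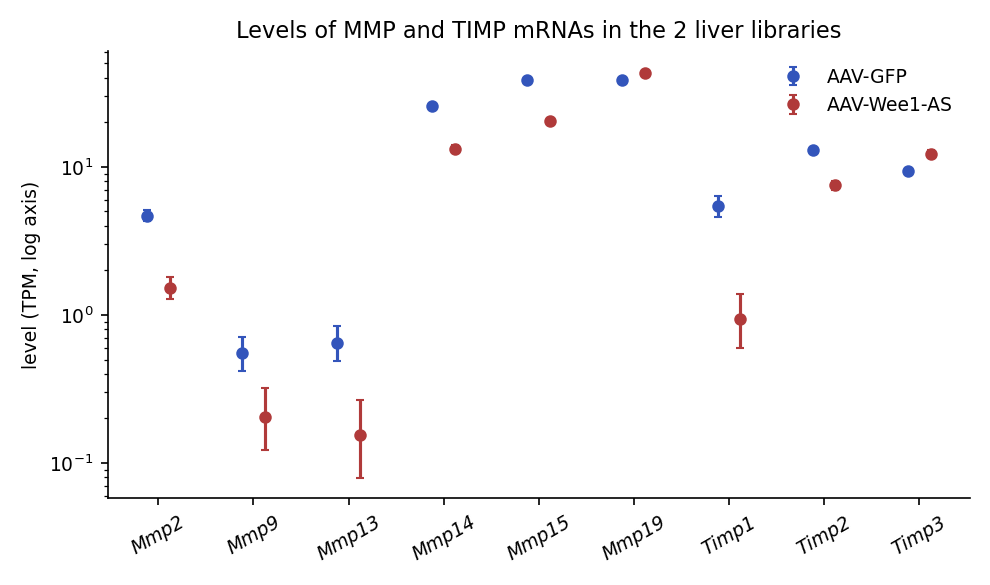
Levels of the 9 members detected in TPM on a log axis, AAV-GFP in blue and AAV-*Wee1-AS* in red, 1 library each. Bars are exact 95% counting intervals. *Mmp9* and *Mmp13* lie below 1 TPM in both libraries, *Timp1* does so in AAV-*Wee1-AS* alone, and *Timp4*, at 0 in both, is not drawn.

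The summed level of the 6 MMP members was 109 TPM in AAV-GFP and 78.7 TPM in AAV-*Wee1-AS*, a ratio of 0.722. The summed level of the TIMP members was 27.7 TPM and 20.8 TPM, a ratio of 0.749. The TIMP sum was 0.254 of the MMP sum in AAV-GFP and 0.264 in AAV-*Wee1-AS*. With the AAV-GFP levels multiplied by the ratios after removal of both trends, a setting chosen after seeing the data, the proportion in AAV-*Wee1-AS* was 0.215. *Timp1* made up 19.6% of the TIMP sum in AAV-GFP and 4.51% in AAV-*Wee1-AS*, *Timp2* made up 46.6% and 36.2%, and *Timp3* made up 33.9% and 59.3%. Among the MMP members, *Mmp19* made up 35.4% in AAV-GFP and 54.7% in AAV-*Wee1-AS*. *Mmp15* made up 35.6% and 26.0%, and *Mmp14* 23.6% and 16.9%. With both trends removed in that way, the shares in AAV-*Wee1-AS* were 8.56% for *Timp1*, 50.7% for *Timp2* and 40.7% for *Timp3*, and 44.8% for *Mmp19*, 32.8% for *Mmp15* and 19.3% for *Mmp14*. The share of *Timp1* was lower and those of *Timp3* and *Mmp19* were higher than in AAV-GFP on both scales, whereas the direction for *Timp2* depended on the correction. These sums are of mRNA and say nothing of enzyme activity.

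Transcripts of 1 gene did not always move together. The Mmp19 models NM_001164197 (3278 bases) and NM_021412 (3411 bases) differ in length by 133 bases. NM_001164197 held 2306 counts in AAV-GFP and 1336 in AAV-*Wee1-AS*, with a log2 ratio of -0.52 (-0.62 to -0.43). NM_021412 held 1934 and 2708 counts, with a log2 ratio of 0.75 (0.66 to 0.83). The share of NM_021412 in the counts of *Mmp19* was thus 45.6% in AAV-GFP and 67.0% in AAV-*Wee1-AS*, so that the near equal level of the gene was a sum of opposite differences. For *Timp1*, NM_011593 held 137 and 12 counts and NM_001044384, which differs by 3 bases in length, held 23 and 12. For *Mmp2*, NM_008610 held 418 and 131 counts, and the predicted model XM_006530751 held 60 and 0. Counts were shared out between overlapping transcripts by the quantification of the authors, and the intervals leave out the error of that step.

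**Figure D3:**
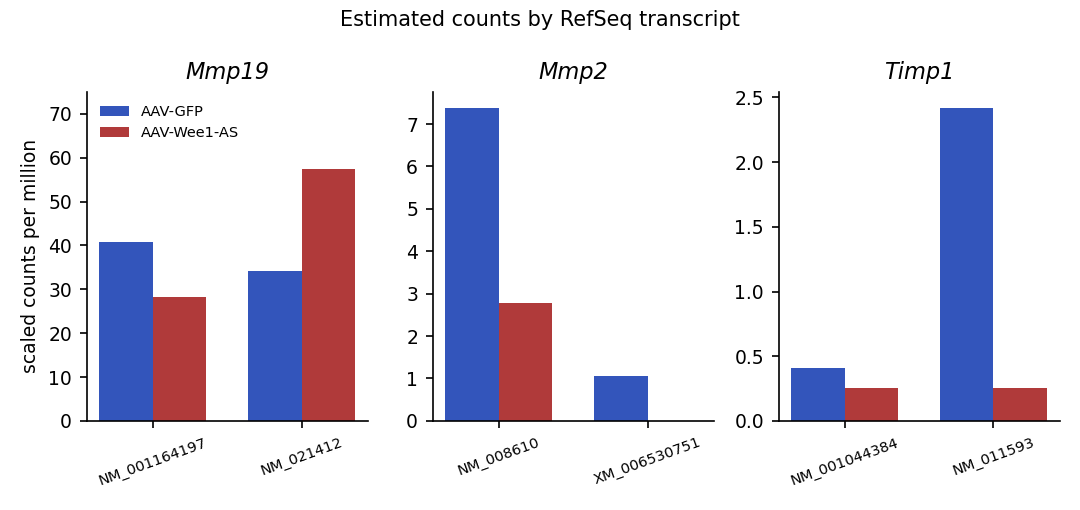
TMM-scaled CPM of the RefSeq transcripts of *Mmp19*, *Mmp2* and *Timp1* that had counts, AAV-GFP in blue and AAV-*Wee1-AS* in red, with a separate axis from 0 for each gene. The 2 transcripts of *Mmp19* differ in opposite directions, while NM_011593 of *Timp1* goes from 137 to 12 counts before scaling.

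Several members share their locus with other genes, and the strand setting of the counting is not given in the sources used here. *Timp1*, *Timp3* and *Timp4* lie within the synapsin genes *Syn1*, *Syn3* and *Syn2*, which encode synaptic vesicle proteins, each on the opposite strand. *Syn1* shares no exon bases with *Timp1* and had 82 counts in AAV-GFP and 34 in AAV-*Wee1-AS*. *Syn3* shares 1733 exon bases with *Timp3* and had 115 and 117 counts, against the 1448 and 1609 of *Timp3*. *Syn2* shares 90 exon bases with *Timp4* and had 12 and 0 counts. *Mmp19* shares 789 exon bases with *Tmem198b* on the opposite strand, which had 336 and 192 counts. *Cep295nl*, which lies within *Timp2*, had no counts, and LOC115486953, which overlaps the end of *Mmp2*, had 9 and 0. Reads at shared bases of opposite strands cannot be assigned without strand.

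The log2 ratio of a gene moved with its GC content in these libraries, over all genes that had a value (14995 genes, 94.6% of those kept; Spearman's rho -0.67 across genes, which are not independent replicates). The median log2 ratio was 1.43 in GC group 1, with the lowest GC content, and -0.69 in group 10. *Mmp2*, *Mmp9*, *Mmp14* and *Timp2* all lay in GC group 8, where the median was -0.50, 83.2% of genes were lower and 12.1% were below 0.5-fold. *Timp1* lay in group 7, where the median was -0.33 and 11.5% of genes were below 0.5-fold. *Timp3*, in group 4, and *Mmp19*, in group 5, had ratios close to the medians of their groups, 0.48 and 0.14. With the trends removed, the log2 ratio of *Timp2* was -0.48. Over all genes, 1196 were then below 0.5-fold and 958 above 2-fold, in place of 1381 and 3527. With 1 library per group, a technical source of the trend and a difference between the livers cannot be told apart.

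**Figure D4:**
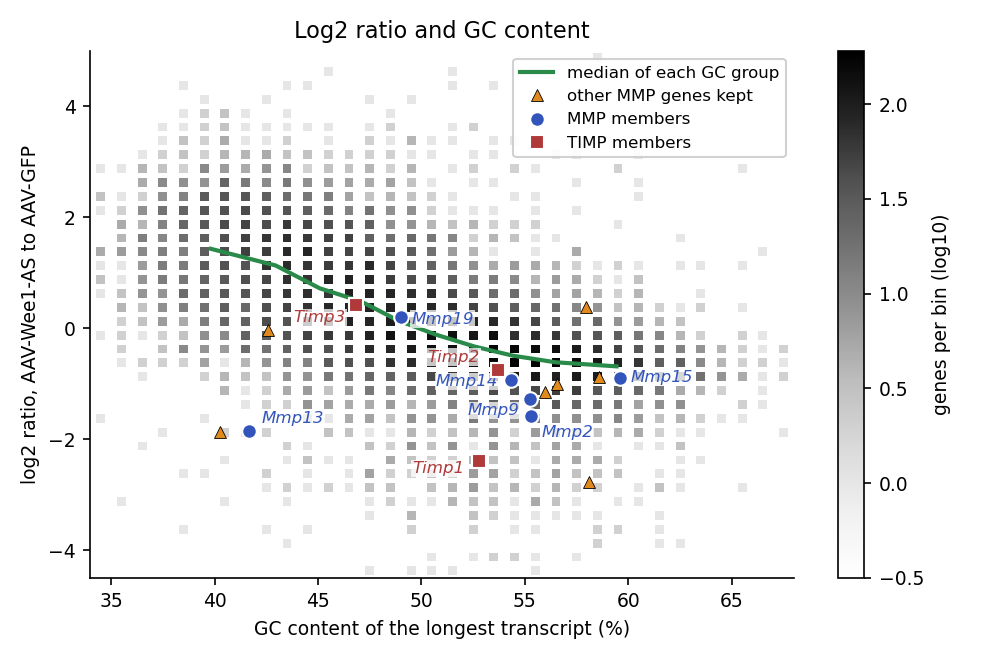
Log2 ratio (AAV-*Wee1-AS* over AAV-GFP) against the GC content of the longest transcript, with the density of all genes in grey, the median of each GC group as a green line, MMP members as blue circles, TIMP members as red squares and the other MMP genes detected as orange triangles. *Timp3* and *Mmp19* lie close to the line, *Timp1* and *Mmp2* lie below it, and *Mmp13* lies far below it at a GC content of 41.7%. Genes outside the drawn range of either axis are left out.

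Of the 17 other MMP genes, 7 were detected, 4 of them below 0.5-fold and 0 above 2-fold, with a median log2 ratio of -1.01, or -0.98 with the trends removed. A further 8 had no counts in either library, among them *Mmp3* and *Mmp10*, the stromelysins. *Mmp12*, the elastase of macrophages, was the best counted of them, with 262 counts in AAV-GFP and 58 in AAV-*Wee1-AS*. Its log2 ratio was -1.88 (-2.35 to -1.50). Like *Mmp13* it is poor in GC (40.3%), and with the trends removed its log2 ratio was -3.24. *Mmp17*, a membrane-anchored enzyme, had 83 and 30 counts (log2 ratio -1.16) and *Mmp23* had 119 and 53 (-0.88), which were -1.11 and -0.04 with the trends removed. *Mmp8*, the collagenase of neutrophils, had 0 and 8 counts and did not reach the count filter. Over all 23 MMP genes, members included, 13 were detected, 11 were lower, 7 were below 0.5-fold and 0 above 2-fold. With the trends removed, 5 of the 13 were below 0.5-fold.

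Of 18 genes for proteases and cofactors that activate MMPs, 16 were detected, with 4 below 0.5-fold, 1 above 2-fold and a median log2 ratio of -0.54. On the scale without the trends, 4 were below 0.5-fold and 0 above 2-fold, with a median of -0.20. *Plaur*, the receptor of urokinase, had 181 and 21 counts and a log2 ratio of -2.74 (-3.57 to -2.19). *Plat*, which encodes tissue plasminogen activator, had 107 and 34 counts (log2 ratio -1.34). *Klkb1*, plasma prekallikrein, and *Ctsl*, cathepsin L, had the highest log2 ratios, 1.23 and 0.81, which were -0.10 and -0.06 with the trends removed. Among 16 genes for other inhibitors and for clearance, 14 were detected, 4 below 0.5-fold and 1 above 2-fold, with a median of -0.24. Without the trends, 3 were below 0.5-fold and 0 above 2-fold, with a median of -0.08. *Thbs1*, thrombospondin, had 308 counts in AAV-GFP and 83 in AAV-*Wee1-AS* (log2 ratio -1.61). *Tfpi2* and *Serpine2* were highest, at 1.07 and 0.84, or -0.02 and 0.35 with the trends removed.

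The matrix genes had the lowest median of the related lists. Of 25 genes for matrix proteins that MMPs can degrade, all 25 were detected, 15 were below 0.5-fold and 0 above 2-fold, with a median log2 ratio of -1.21, or -1.17 and 14 genes with the trends removed. *Col1a1*, a chain of type I collagen, had 3620 counts in AAV-GFP and 603 in AAV-*Wee1-AS* (log2 ratio -2.32, -2.45 to -2.20). *Col3a1*, type III collagen, had 9104 and 1858 counts (-2.03, -2.10 to -1.96). *Dcn*, decorin, and *Fn1*, fibronectin, were the highest, at 0.33 and 0.21, and were -0.84 and -0.05 with the trends removed.

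Of 30 genes for cytokines, receptors and transcription factors known to induce MMP or TIMP genes, 25 were detected, with 7 below 0.5-fold, 4 above 2-fold and a median of -0.58. Removal of the trends left 5 below 0.5-fold and 0 above 2-fold, with a median of -0.36. *Fosb*, a subunit of AP-1, had 142 counts in AAV-GFP and 13 in AAV-*Wee1-AS* (log2 ratio -3.02, -4.13 to -2.37). *Tgfb3*, a transforming growth factor, had 102 and 29 counts (-1.49). *Ddr2*, a collagen receptor, and *Sp1*, which binds GC boxes, were highest, at 1.61 and 1.46, and were 0.21 and -0.09 with the trends removed.

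Marker lists of cell types were counted beside the members. Of 7 markers of activated myofibroblasts, all were detected and 6 were below 0.5-fold, as were 6 with the trends removed, and their summed level was 121 TPM in AAV-GFP and 28.7 TPM in AAV-*Wee1-AS*. *Tagln*, a smooth muscle protein, had 780 and 106 counts (log2 ratio -2.60). Of these 7 markers, 4 (*Col1a1*, *Col1a2*, *Col3a1* and *Fbn1*) are also in the list of matrix genes. Of 12 markers of hepatic stellate cells, 3 were above 2-fold and 2 below 0.5-fold, with a summed level of 377 and 305 TPM, and with the trends removed 0 were above 2-fold and 1 below 0.5-fold. Of 8 markers of monocyte-derived macrophages, 6 were below 0.5-fold, or 5 with the trends removed, with a summed level of 127 and 93.6 TPM. *Gpnmb* was lowest, with 831 and 62 counts (log2 ratio -3.44). The other 2 markers were higher without removal of the trends, among them *Lyz2*, at 71.6 TPM in AAV-GFP and 75.1 TPM in AAV-*Wee1-AS* (log2 ratio 0.09). Of 8 markers of Kupffer cells, 4 were higher and 4 lower, with 3 above 2-fold and 1 below 0.5-fold. With the trends removed, 1 was above 2-fold and 0 below 0.5-fold. The summed level of these 8 markers was 672 and 441 TPM, whereas their median log2 ratio was -0.03, or 0.09 with the trends removed. Among them, *Marco* and *Vsig4* had the highest log2 ratios, 1.60 and 1.52, which were 2.17 and 0.96 with the trends removed. *C1qa* and *C1qb*, chains of complement C1q, had the lowest, -0.91 and -1.01, which were -0.0027 and -0.18 with the trends removed. The level of *C1qa* was 168 TPM in AAV-GFP and 87.9 TPM in AAV-*Wee1-AS*, and that of *C1qb* was 171 and 83.2 TPM. Of 11 neutrophil markers, 9 were detected, 3 of them below 0.5-fold, or 2 below 0.5-fold and 1 above 2-fold with the trends removed, with a summed level of 17.0 and 9.26 TPM, and *Ly6g*, a defining marker, was at 0 in both libraries. None of 8 endothelial markers passed 2-fold in either direction, with a summed level of 228 and 184 TPM. Of 4 mesothelial markers, 3 were below 0.5-fold, or 2 with the trends removed, with a median of -1.48 and a summed level of 3.70 and 1.49 TPM. Of 6 lymphocyte markers, 1 was above 2-fold and 1 below 0.5-fold, with or without the trends, with a summed level of 5.98 and 4.32 TPM. Of 6 cholangiocyte markers, 5 were detected and 0 passed 2-fold in either direction, with a summed level of 44.1 and 37.9 TPM. The part of these cell types in the values of the members was not tested.

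**Figure D5:**
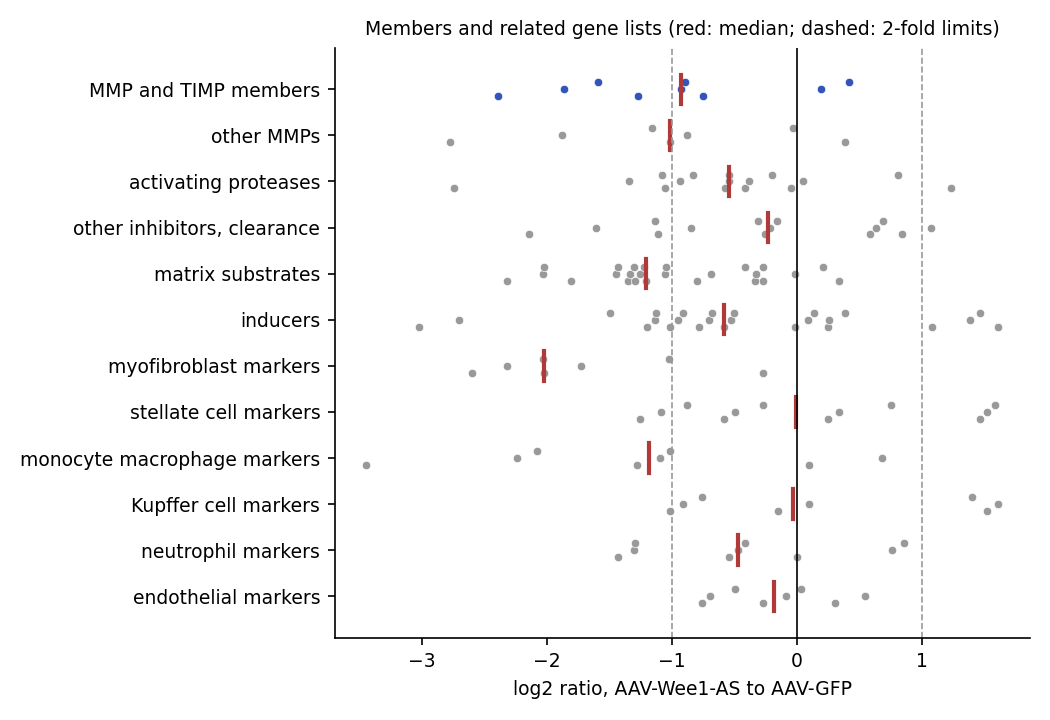
Log2 ratio (AAV-*Wee1-AS* over AAV-GFP) for the members (blue) and for genes of related lists and cell type markers (grey), each point 1 gene past the count filter, the red bar the median of the list and dashed lines 0.5-fold and 2-fold. The members center on -0.93, matrix substrates on -1.21 and myofibroblast markers on -2.02, while stellate cell and Kupffer cell markers center near 0, all without removal of the trends.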

How the data were processed

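Poly-A RNA of mouse liver was sequenced in paired ends from stranded libraries, 1 for each group. The submitters' processing notes name Trimmomatic 0.38, HISAT2 2.1.0, SAMtools 1.9, StringTie 2.1.3b and mm10. The authors deposited 1 table of 129299 RefSeq transcripts with an estimated count that is not normalized. The deposited FPKM and TPM values are scaled to transcript length and library.

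Estimated counts were summed per gene symbol and scaled by TMM over all genes (edgeR 4.0.16, R 4.3.3, factors 1.02 and 0.980). The prior count of the log2 ratios was 2. The filter asked for 10 or more counts in 1 or both libraries, and 2-fold and 0.5-fold limits were used. Intervals are exact (Clopper-Pearson, 95%). PCR copies and pairs counted per mate are not independent molecules. GC content came from the longest GENCODE transcript, and trends were removed by lowess (span 0.3, 5 cycles). Python 3.11.15 was used with pandas 2.3.3 and numpy 2.4.6, scipy 1.17.1 for intervals, statsmodels 0.14.6 for lowess and matplotlib 3.10.9 for plots. The steps were tested on simulated data.

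Named are the 10 members, their host and overlapping genes and, per list, genes with the 2 highest and 2 lowest log2 ratios among those with 50 or more counts in a library. Of marker lists, examples are given, and 1 gene that the rule names is not reported here. *Mmp3*, *Mmp8* and *Mmp10*, and *Adam17* in the closing part, were named after their values were seen. Members and lists were chosen with earlier results of these data known. Other settings tried were size factors of DESeq2 1.42.0, scaling by totals or by the upper quartile, 3 count filters, a prior count of 0.5, FPKM and TPM with a pseudocount of 1, removed trends, single or curated transcripts, halved counts and, added after seeing the data, TMM over genes past the filter.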

Additional observations from a re-analysis of the deposited data

How the results depend on the processing

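No paired analysis was possible because each group had 1 library, and for the same reason no replicate could be left out. The median log2 ratio of the members, -0.93 as reported, was -1.04 with the upper quartile, -0.67 with FPKM, -0.71 with TPM, -0.65 with the trends of GC content and length removed and -1.26 with the length trend removed. The upper quartile moved the median of all genes by -0.12. Members below 0.5-fold numbered 6 with the upper quartile, 6 with the length trend removed, 3 with both trends removed, 1 with FPKM and 2 with TPM in place of 4. For TPM, the pseudocount of 1 exceeds the levels of *Mmp9* and *Mmp13* in both libraries. It also exceeds that of *Timp1* in AAV-*Wee1-AS* (0.937 TPM), whose log2 ratio was -1.73 with TPM in place of -2.39. All genes past 2-fold numbered 1336 with FPKM, 2046 with TPM and 2154 with both trends removed, in place of 4908. Of 14 alternatives, the count filters cannot change the ratio of a member, nor can the choice of transcripts where the same transcripts are kept. Among those that changed the value, *Timp1* was below 0.5-fold in 10 of 10, *Mmp2* in 10 of 11, *Mmp13* in 7 of 9, *Mmp9* in 8 of 11 and *Mmp14* and *Mmp15* in 2 of 9 each. The sign held in all of these for the members so far named and *Timp2*, in 9 of 10 for *Mmp19* and in 7 of 9 for *Timp3*. *Mmp9* and *Mmp13*, at 58 counts or fewer, are limited by depth.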

Other observations

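The ADAM and ADAMTS proteases are relatives of the MMPs, and several are inhibited by TIMP3. Of 27 genes, 20 were detected, 5 above 2-fold and 6 below 0.5-fold, with a median log2 ratio of -0.26, or -0.52 with the trends of GC content and length removed. The MMP genes had medians of -1.01 and -0.82. With the trends removed, 6 of 20 ADAM and ADAMTS genes and 5 of 13 MMP genes were below 0.5-fold, and the difference between the lists was not tested. *Adam10* and *Adam9*, membrane-bound sheddases, had the highest ratios. *Adam10* had 322 counts in AAV-GFP and 979 in AAV-*Wee1-AS* (log2 ratio 1.86), and *Adam9* had 852 and 2534 (1.83). With the trends removed, these ratios were 0.45 and 1.16, and *Adam9* was the only gene of the list above 2-fold. *Adam17*, the sheddase of tumor necrosis factor, had 277 and 764 counts, with a log2 ratio of 1.72, or 0.77 with the trends removed. The lowest ratios were those of *Adam8*, a protease of myeloid cells, with 80 and 8 counts (-2.80), and of *Adamts7*, with 393 and 90 counts (-1.84), which were -2.77 and -1.60 with the trends removed.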
